A study of Mus musculus with 12 samples.

Results

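Cells carry receptors that detect RNA or DNA in the cytosol, and 8 genes of this kind were followed in retinas of p16‐3MR mice after a rise of intraocular pressure (IOP). They were taken as the rows with the symbols Ddx58, Ifih1, Dhx58, Eif2ak2, Zbp1, Tmem173, Trex1 and Aim2, which are 8 of the 24340 rows of the expression table and 8 of the 18509 rows above 0 in at least 1 library. No member was at 0 in any library. RNA was sequenced from both retinas of 6 mice aged 12 to 16 weeks, collected on day 3. In each mouse IOP was raised to 85–90 mm Hg for 60 min in a single eye by infusion of saline into the anterior chamber, and the fellow eye was the control. Mice 1, 2 and 5 received ganciclovir (GCV) at 25 mg/kg daily (groups ctrl‐GCV and IOP‐GCV), and mice 3, 4 and 6 received PBS (groups ctrl and IOP), so that each group held 3 retinas. All 6 mice carried the p16‐3MR transgene, in which the regulatory region of p16Ink4a drives luciferase, red fluorescent protein and a viral thymidine kinase that turns GCV toxic. Retinas of mice without the transgene were not analysed here, so an effect of GCV itself cannot be told apart from an effect of removing p16Ink4a‐expressing cells.

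RIG‐I (Ddx58) and MDA5 (Ifih1) bind foreign or unusual double‐stranded RNA and signal through the mitochondrial adaptor MAVS to interferon genes, and LGP2 (Dhx58) is a related receptor without the signaling domain. PKR (Eif2ak2) is a kinase that stops translation on binding double‐stranded RNA, and ZBP1 binds left‐handed Z‐form nucleic acids and can start necroptosis through RIPK3. STING (Tmem173) responds to the cyclic dinucleotide made by cGAS on cytosolic DNA, TREX1 is an exonuclease that removes such DNA, and AIM2 assembles an inflammasome on it. Many of these genes are themselves induced by interferon, through promoter elements that respond to it.

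Sequences at the gene starts were examined for that reason. The RefSeq promoter table (GRCm38.p6, the patch release of the mm10 build named by the submitters) holds windows of 300 bases, 250 before and 50 after each start, for 5 of the 8 members: Ddx58, Ifih1, Eif2ak2, Trex1 and Aim2. The core of the interferon‐stimulated response element, GAAANNGAAA, was searched on both strands (TTTCNNTTTC on the opposite one). It was present in 3 of these 5 members, Ddx58, Ifih1 and Eif2ak2, and in 3.99% of the 27025 genes with a window (3.44% of 32851 windows). Neither the Aim2 window nor the 2 Trex1 windows held these letters. The 3 sites are printed 5′ to 3′ on the strand of the gene, with the matched bases in capitals, so that the element found by the search can be read in these 3 genes.
Ddx58, chr4:40239804-40239833, minus strand: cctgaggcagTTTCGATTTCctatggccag
Ifih1, chr2:62646206-62646235, minus strand: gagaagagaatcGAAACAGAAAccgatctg
Eif2ak2, chr17:78882535-78882564, minus strand: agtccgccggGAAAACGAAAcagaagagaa
All 3 matches lay just downstream of the RefSeq start, from base 3 to 12 in Ddx58, 33 to 42 in Ifih1 and 19 to 28 in Eif2ak2. In the GENCODE annotation the matched bases lay wholly within exon 1 of 2 of 10 Ddx58, 1 of 5 Ifih1 and 2 of 4 Eif2ak2 transcripts. The match in Ddx58 was on the strand opposite to the gene. A match describes letters, and binding of a factor was not measured.

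Values are in FPKM, fragments per kilobase of exon scaled to the library, so levels can be compared between genes per length. Differences were tested with limma on log2(FPKM + 1), with a mean for each of the 4 groups, p-values were adjusted over the 18509 rows by the Benjamini-Hochberg method, and a gene is called when its adjusted p is under 0.05. On this scale a difference understates the change of genes below about 1 FPKM. Between 3990000 and 9060000 fragments per library were estimated from the steps between low values. The IOP‐treated retina of mouse 6 was the lowest, against at least 6820000 in the other 11 libraries, and it had 14844 genes above 0 against 16044 to 16593. In whole retina, more RNA per cell and more cells of the type that holds it cannot be told apart.

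IOP elevation was accompanied by higher levels of most of the sensors. Over all 6 mice, 7 of the 8 genes were called higher and Aim2 was not, against 6.76% of all genes called higher in the same comparison. The median log2 difference of the RIG‐I‐like receptors was 1.32, against 0.01 over all genes. The largest difference was that of Zbp1. Ddx58, Ifih1, Eif2ak2, Zbp1 and Tmem173 were higher in the IOP‐treated eye of all 6 mice, as were 10.7% of all genes, and for these 5 the 6 IOP‐treated retinas lay above all 6 control retinas, as they did for 5.47% of all genes.

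**Figure D1:**
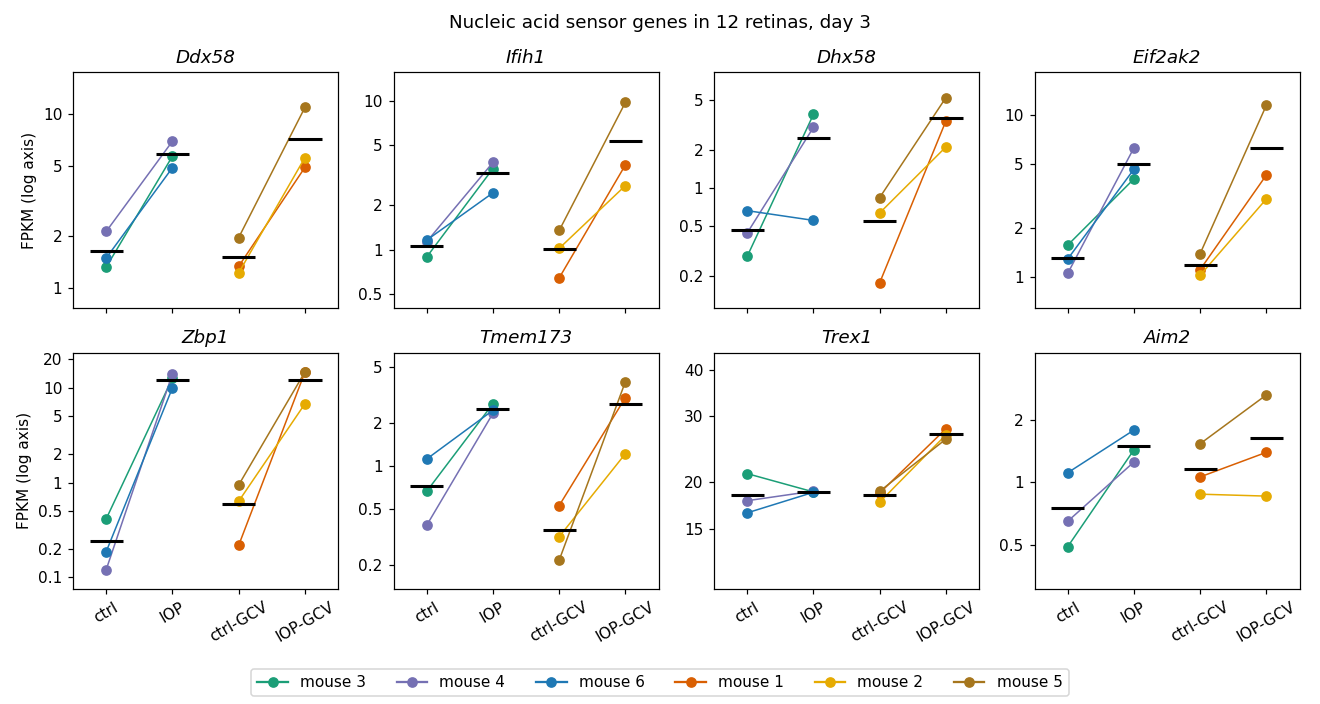
FPKM of the 8 sensor genes in each retina (log axes, with a separate range for each gene); points joined by a line are the 2 eyes of a mouse, and black bars are the means of the 3 retinas of a group. Zbp1 rises from 0.120–0.944 FPKM to 6.78–14.7 FPKM, Dhx58 is not higher after IOP in mouse 6, and Trex1 lies at 26.1–27.8 FPKM only in the IOP‐GCV retinas.

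Ddx58, the RIG‐I gene, was at 1.32, 2.11 and 1.49 FPKM in the control retinas of mice 3, 4 and 6 and at 5.73, 6.98 and 4.92 FPKM in their IOP‐treated retinas. With GCV it was at 1.33, 1.22 and 1.95 FPKM in the control retinas of mice 1, 2 and 5 and at 4.94, 5.63 and 10.9 FPKM after IOP. Every IOP‐treated retina was above every control, and mouse 5 stood highest. The log2 difference over all mice was 1.51 (SE 0.19, adjusted p = 0.00127), and the mean FPKM was 4.15 times that of the controls. The gain within a mouse was narrow in range, from 1.25 in mouse 6 to 2.02 in mouse 5 on the log2 scale.

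Ifih1, for MDA5, was at 0.890, 1.13 and 1.16 FPKM in ctrl and at 3.49, 3.84 and 2.40 FPKM in IOP retinas of mice 3, 4 and 6. In mice 1, 2 and 5 its values were 0.645, 1.02 and 1.34 FPKM in ctrl‐GCV and 3.70, 2.69 and 9.73 FPKM in IOP‐GCV retinas. The groups did not overlap, and the retina of mouse 5 was again far above the others. Over all mice the log2 difference was 1.28 (SE 0.24, adjusted p = 0.0113).

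Dhx58, the gene for LGP2, was the exception among the RIG‐I‐like receptors in a single animal. It went from 0.286 to 3.87 FPKM in mouse 3 and from 0.440 to 3.05 FPKM in mouse 4, but was at 0.663 FPKM in the control and 0.555 FPKM in the IOP‐treated retina of mouse 6. In mice 1, 2 and 5 it went from 0.177, 0.636 and 0.843 FPKM to 3.44, 2.13 and 5.28 FPKM. The value of mouse 6 after IOP rested on about 4.96 estimated fragments, in the library with the lowest depth. Dhx58 was called over all mice (log2 difference 1.32, SE 0.29, adjusted p = 0.0193). It had an adjusted p of up to 0.0522 when a library was left out, and was not called without the control retina of mouse 3 or of mouse 4.

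PKR is made from Eif2ak2, which was at 1.58, 1.06 and 1.29 FPKM in ctrl and 4.03, 6.26 and 4.62 FPKM in IOP retinas of mice 3, 4 and 6. With GCV its values were 1.12, 1.03 and 1.40 FPKM in ctrl‐GCV and 4.27, 3.04 and 11.5 FPKM in IOP‐GCV retinas of mice 1, 2 and 5. No control retina reached the lowest IOP‐treated retina. The log2 difference over all mice was 1.46 (SE 0.25, adjusted p = 0.00655).

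Zbp1 had the lowest mean of the members over the 6 control retinas and the second highest over the 6 IOP‐treated retinas. In ctrl‐GCV retinas alone its mean of 0.599 FPKM was above those of Dhx58 (0.552 FPKM) and Tmem173 (0.354 FPKM). Its control values were 0.413, 0.120 and 0.187 FPKM in mice 3, 4 and 6 and 0.218, 0.635 and 0.944 FPKM in mice 1, 2 and 5. After IOP it was at 12.6, 14.0 and 9.97 FPKM without GCV and at 14.6, 6.78 and 14.7 FPKM with GCV. All 6 IOP‐treated retinas were thus many times above every control, and mouse 2 was the lowest of them. The mean rose 28.9-fold on the FPKM scale, and by 3.19 on the log2 scale (SE 0.20, adjusted p = 0.000106). The ratio of the 2 eyes ran from 10.7 in mouse 2 to 116 in mouse 4, and is coarse because the control values rest on 3.44 to 20.3 estimated fragments, against 126 to 405 after IOP.

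Tmem173, which encodes STING, was low throughout. It was at 0.663, 0.382 and 1.12 FPKM in the ctrl and 2.75, 2.35 and 2.47 FPKM in the IOP retinas of mice 3, 4 and 6. For mice 1, 2 and 5 the values were 0.526, 0.317 and 0.217 FPKM in ctrl‐GCV and 3.04, 1.22 and 3.95 FPKM in IOP‐GCV retinas. The sets did not overlap, though the IOP‐treated retina of mouse 2 was close to the control retina of mouse 6. The log2 difference over all mice was 1.22 (SE 0.19, adjusted p = 0.00425).

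Trex1, the DNA exonuclease gene, was by far the most abundant member in control retinas, at 16.5 to 21.1 FPKM against at most 2.11 FPKM for any other. It was at 21.1, 17.8 and 16.5 FPKM in ctrl and at 18.8, 18.9 and 18.8 FPKM in IOP retinas of mice 3, 4 and 6. With GCV it was at 18.7, 17.7 and 18.9 FPKM in ctrl‐GCV and 27.8, 26.8 and 26.1 FPKM in IOP‐GCV retinas of mice 1, 2 and 5. The values thus stood apart from all 9 other retinas in the IOP‐GCV group alone. Over all mice the log2 difference was small (0.28, SE 0.07, adjusted p = 0.0272), and it was not called when the mouse was a block in the fit (adjusted p = 0.0650), which left 6 members called against 4.83% of all genes. It was also not called without the control retina of any one of mice 1, 2, 4, 5 and 6, with adjusted p of up to 0.0765. Trex1 (chr9:109057933-109059734, minus strand, GENCODE M21 on GRCm38) lies wholly within Atrip (chr9:109057933-109074124) on the same strand, so fragments of the 2 genes may be shared. Atrip itself was not called in any of the 6 comparisons, and in IOP‐GCV retinas it was at 10.1 ± 1.32 FPKM against 10.7 ± 0.328 FPKM in ctrl‐GCV (SD, n = 3).

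Aim2, the DNA sensor of the inflammasome, was at 0.488, 0.648 and 1.11 FPKM in ctrl and 1.43, 1.25 and 1.79 FPKM in IOP retinas of mice 3, 4 and 6. With GCV it was at 1.06, 0.876 and 1.54 FPKM in ctrl‐GCV and 1.40, 0.858 and 2.64 FPKM in IOP‐GCV retinas of mice 1, 2 and 5. The ranges of control and IOP‐treated retinas overlapped, although the value was higher after IOP in 5 of 6 mice. The difference over all mice was not called (log2 difference 0.38, 95% interval 0.00 to 0.76, adjusted p = 0.162). Aim2 is overlapped by Cadm3 on the opposite strand, Dhx58 by the antisense transcript Dhx58os and Eif2ak2 by Gm26637. The libraries were stranded, but whether strand was used in counting is not given in the sources used here.

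**Figure D2:**
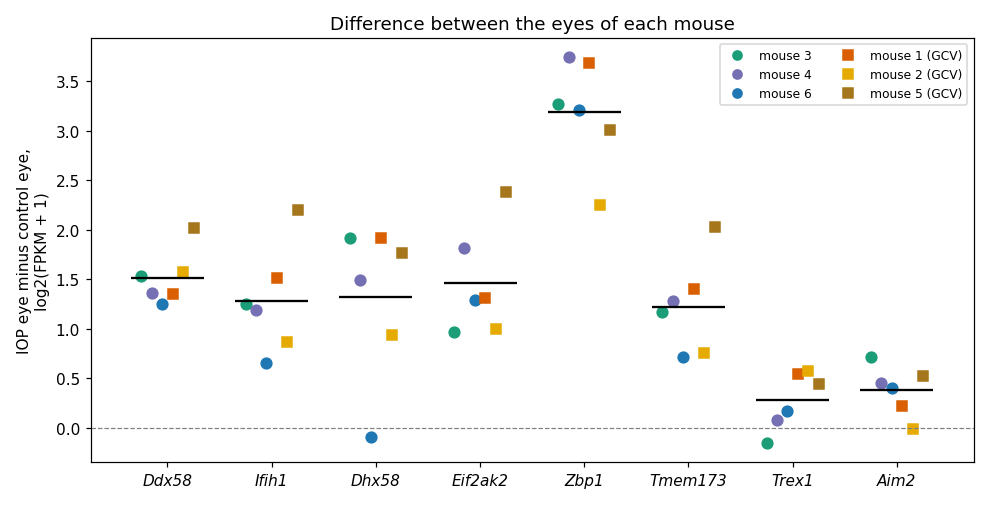
Difference between the IOP‐treated and the control eye of each mouse, in log2(FPKM + 1), for the 8 genes; circles are mice without GCV, squares mice with GCV, and black bars the mean of 6 mice. Only Dhx58 in mouse 6 (-0.10), Trex1 in mouse 3 (-0.16) and Aim2 in mouse 2 (-0.01) lie below 0.

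Animals differed in the size of the response. The median difference over the 8 genes was largest in mouse 5 (2.02 on the log2 scale) and smallest in mouse 6 (0.69), with mice 1, 2, 3 and 4 at 1.38, 0.90, 1.21 and 1.32, while the median over all genes was 0 in each. The order of mice was not the same for every gene, since mouse 4 had the largest difference for Zbp1 (3.74) and mouse 3 for Aim2 (0.71). The levels of the members also changed order. In control retinas the means over 6 retinas ran from 18.5 FPKM for Trex1 through 1.57 for Ddx58, 1.25 for Eif2ak2, 1.03 for Ifih1, 0.953 for Aim2, 0.537 for Tmem173 and 0.508 for Dhx58 to 0.420 FPKM for Zbp1. Apart from Trex1, each gene overlapped its neighbours in that order over the control retinas. After IOP the order was Trex1 at 22.9 FPKM, Zbp1 at 12.1, Ddx58 at 6.52, Eif2ak2 at 5.62, Ifih1 at 4.31, Dhx58 at 3.05, Tmem173 at 2.63 and Aim2 at 1.56 FPKM. Over the IOP‐treated retinas the range of Trex1 stayed above that of Zbp1, whereas the ranges of each of the other neighbours overlapped. Within every IOP‐treated retina Zbp1 was above Ddx58, Eif2ak2 above Ifih1 and Tmem173 above Aim2.

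Within each treatment, with 3 retinas a group, fewer differences passed the test. Without GCV, Ddx58 (log2 difference 1.38, SE 0.27, adjusted p = 0.0328) and Zbp1 (3.41, SE 0.29, adjusted p = 0.00251) were called higher, 2 of 8 genes against 1.42% of all genes. Eif2ak2 (1.36, adjusted p = 0.0950), Tmem173 (1.06, adjusted p = 0.0926), Dhx58 (1.11, adjusted p = 0.208) and Ifih1 (1.03, adjusted p = 0.180) had positive differences that were not called, as had Aim2 (0.52, adjusted p = 0.274), and Trex1 was at 0.03 (adjusted p = 0.874). With the mouse as a block Ddx58 was not called (adjusted p = 0.0559), which left Zbp1, 1 of 8 genes against 0.389% of all genes. Zbp1 was also the single member called without any one of the control retinas of mice 3, 4 and 6 or the IOP‐treated retina of mouse 3. Leaving out the IOP‐treated retina of mouse 4 added Tmem173, for 3 called, and leaving out that of mouse 6 put Dhx58 in place of Ddx58.

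With GCV, Zbp1 (2.98, SE 0.29, adjusted p = 0.00271), Ddx58 (1.65, SE 0.27, adjusted p = 0.0141), Trex1 (0.52, SE 0.09, adjusted p = 0.0211) and Tmem173 (1.39, SE 0.27, adjusted p = 0.0308) were called higher, 4 of 8 genes against 1.65% of all genes. Ifih1 (1.53, adjusted p = 0.0548), Eif2ak2 (1.56, adjusted p = 0.0550), Dhx58 (1.54, adjusted p = 0.0884) and Aim2 (0.24, adjusted p = 0.653) were not called. In the fit with the mouse as a block Tmem173 (adjusted p = 0.0843) and Trex1 (adjusted p = 0.0950) were lost, which left 2 of 8 genes against 0.751% of all genes. Without the control retina of mouse 1 or of mouse 2, Zbp1 was the 1 member called. There were 2 without the control retina of mouse 5 or the IOP‐treated retina of mouse 1. There were 3 when the IOP‐GCV retina of mouse 5 was left out, and 6 when that of mouse 2 was. Calls over all genes, 334 in the full fit, were 716 without the IOP‐GCV retina of mouse 2. They were 77 without the control retina of mouse 2. Fitting the 6 GCV libraries on their own left Zbp1 alone, with 92 calls over all genes.

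**Figure D3:**
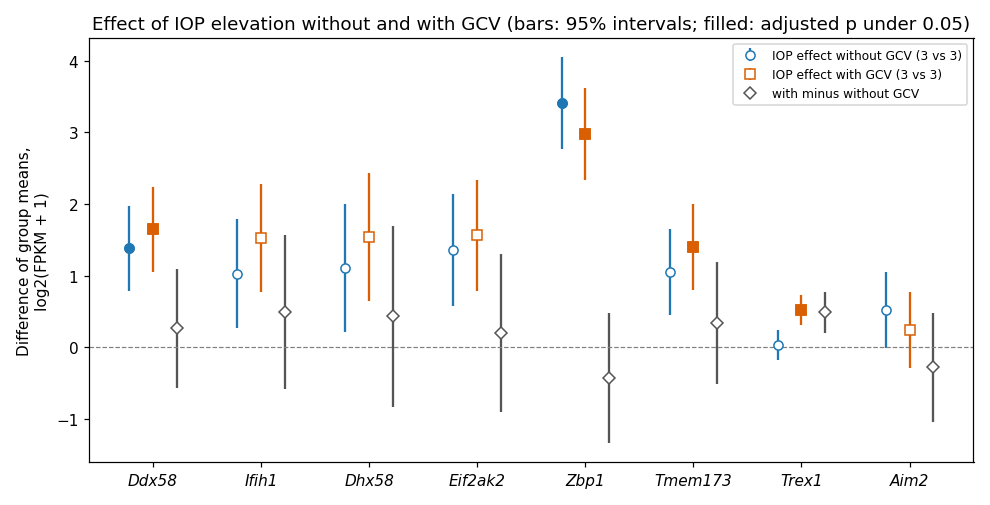
Effect of IOP elevation on the 8 genes without GCV (circles) and with GCV (squares), and the difference between the 2 effects (diamonds), on the log2(FPKM + 1) scale with 95% intervals; filled symbols have an adjusted p under 0.05. The intervals of the difference include 0 for all genes but Trex1, and none is filled.

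Whether GCV changed the effect of IOP was tested directly. By limma no member was called, and neither was any of the 18509 genes, of which 358 (1.93%) had an unadjusted p under 0.05. Trex1 was the 1 member below that value: its IOP effect was larger with GCV by 0.49 on the log2 scale (95% interval 0.20 to 0.78, unadjusted p = 0.00376, adjusted p = 0.997). For the other 7 genes the intervals were wide and included 0. The narrowest was -1.04 to 0.48 for Aim2 and the widest -0.83 to 1.70 for Dhx58, and each of the 7 intervals reached past 1 on the log2 scale in at least 1 direction. For Zbp1 the difference was -0.43 (95% interval -1.33 to 0.48).

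IOP‐treated retinas of mice with and without GCV were also compared with each other. None of the 18509 genes was called, with 774 (4.18%) at an unadjusted p under 0.05. Trex1 was higher with GCV by 0.49 on the log2 scale (95% interval 0.28 to 0.70, unadjusted p = 0.00032, adjusted p = 0.819), in all 3 retinas against all 3. The other members differed by between -0.08 (Zbp1) and 0.50 (Dhx58), and no adjusted p was below 0.819. In control retinas the 2 treatments did not differ by a called amount for any gene, with 295 genes (1.59%) at an unadjusted p under 0.05, and for Trex1 the difference was 0.00 (95% interval -0.20 to 0.21).

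Partners of the sensors were taken from 9 lists with 77 genes, and 74 had a value above 0. Over all 6 mice 38 of the 74 were called higher and 1 lower (all genes: 6.76% and 5.44%), with a median log2 difference of 0.59 against 0.01 over all genes. With the mouse as a block 33 were called higher and none lower.

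**Figure D4:**
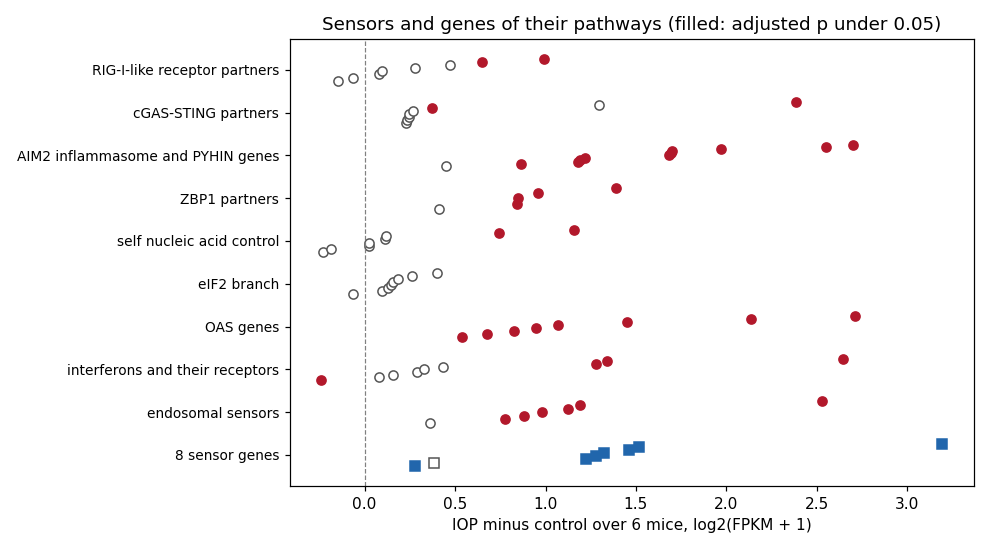
Log2 difference between IOP‐treated and control retinas over 6 mice for genes of the 9 pathway lists (circles) and for the 8 sensor genes (squares); filled symbols have an adjusted p under 0.05. AIM2 and PYHIN genes, OAS genes and endosomal sensors hold mostly filled symbols, and the eIF2 branch holds none.

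Of 8 genes that carry or tune the signal of the RIG‐I‐like receptors, 2 were called higher, with a list median of 0.19. They were Trim25, a ubiquitin ligase for RIG‐I (5.65 to 9.53 FPKM, log2 difference 0.65, adjusted p = 0.0132), and Zc3hav1, which encodes the antiviral RNA‐binding protein ZAP (0.667 to 2.47 FPKM, 0.99, adjusted p = 0.0203). Mavs, the common adaptor, had a level of 8.50 FPKM in control retinas and 10.5 FPKM after IOP and was not called (0.28, adjusted p = 0.0601). Leaving out a library gave 1 to 3 called partners, with 1 without the control retina of mouse 3 or mouse 5.

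Around STING, 2 of 8 partners were called higher, with a list median of 0.26. Irf7, an interferon regulatory factor, went from 8.35 to 54.0 FPKM (log2 difference 2.38, adjusted p = 0.000833), and Ddx41, a helicase, from 15.7 to 20.6 FPKM (0.38, adjusted p = 0.0219). The DNA sensor upstream of STING, cGAS (Mb21d1), averaged 0.0351 FPKM in control retinas and 0.240 FPKM after IOP, a level at which few fragments are behind a value (0.25, adjusted p = 0.0763). Tbk1, the kinase that STING recruits (14.9 and 17.7 FPKM, adjusted p = 0.146), and its substrate Irf3 (20.9 and 24.8 FPKM, adjusted p = 0.0876) were not called. Without the control retina of mouse 4 or mouse 5, 1 partner was called, and 4 were called when the IOP‐treated retina of mouse 2 or mouse 4 was left out.

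Inflammasome and PYHIN genes, the relatives of Aim2, were called higher in 10 of 11 cases, with a list median of 1.68. Ifi204 rose from 0.446 to 9.15 FPKM (2.70, adjusted p = 0.000836), Mndal from 0.189 to 3.92 FPKM (1.97, adjusted p = 0.00127) and Pyhin1 from 0.122 to 2.85 FPKM (1.68, adjusted p = 0.00183). Pycard, the adaptor of AIM2 (0.540 to 2.64 FPKM, 1.18, adjusted p = 0.00761), and Casp1, the inflammasome protease (0.152 to 3.10 FPKM, 1.69, adjusted p = 0.00550), also rose, and Il18 was the gene not called (adjusted p = 0.237). The PYHIN genes are close copies of each other, so the share of each is uncertain.

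Of 5 genes listed as partners of ZBP1 in cell death, 4 were called higher, with a list median of 0.85. Ripk3, the kinase that ZBP1 engages, went from 0.0112 to 0.875 FPKM (0.84, adjusted p = 0.0123), and its substrate Mlkl from 0.0407 to 0.933 FPKM (0.85, adjusted p = 0.0113). Ripk1 was higher and already present in control retinas (1.53 to 4.08 FPKM, 0.96, adjusted p = 0.0145). Fadd was not called (adjusted p = 0.0669). The median of Ripk3 and of Mlkl was 0 in both control groups, so few fragments are behind their control means. Leaving out a library gave 3 to 5 called partners of ZBP1.

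Genes that limit sensing of a cell's own nucleic acids, as Trex1 does, were called higher in 2 of 8 cases, with a list median of 0.07. These were Samhd1, a deoxynucleotide hydrolase (7.32 to 13.3 FPKM, 0.74, adjusted p = 0.0279), and Dnase2a, a lysosomal nuclease (2.67 to 7.97 FPKM, 1.16, adjusted p = 0.0312), neither of which was called with the mouse as a block (adjusted p = 0.0626 and 0.0598). Neither was called without the control retina of any one of mice 2, 3, 4, 5 and 6. Adar, which edits double‐stranded RNA, averaged 19.8 FPKM in control retinas and 18.0 FPKM after IOP (-0.19, adjusted p = 0.553), and Skiv2l, an RNA helicase of the exosome pathway, at 13.5 and 14.9 FPKM (adjusted p = 0.487).

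In the branch that PKR shares with the other eIF2 kinases, 0 of 8 genes were called by limma, with 2 at an unadjusted p under 0.05, and 1 was called when the IOP‐treated retina of mouse 1 or of mouse 4 was left out. Eif2ak3, the kinase PERK, was at 11.7 and 13.5 FPKM (adjusted p = 0.189). The stress factors Atf4 (197 and 237 FPKM, adjusted p = 0.148) and Ddit3 (57.7 and 76.9 FPKM, adjusted p = 0.0685) were abundant in both sets of retinas.

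OAS and OAS‐like genes, whose family includes enzymes that make oligoadenylates on binding double‐stranded RNA, were called higher in 8 of 8 cases. Oasl2 rose from 5.48 to 43.0 FPKM (2.71, adjusted p = 0.000131), Oas1a from 0.193 to 4.47 FPKM (2.14, adjusted p = 0.000417) and Oas1g from 0.0132 to 0.836 FPKM (0.82, adjusted p = 0.00126). The median of Oas1g was 0 in both control groups. In the list that holds these genes, 7 were called with the mouse as a block, and 6 to 8 when a library was left out. The Oas1 copies are near‐identical, and reads could be split between them.

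Of the 13 genes listed for interferons, their receptors and signaling, 4 encode interferons. Ifna4, Ifng and Ifnl3 were listed at 0 in all libraries, and Ifnb1 was above 0 in 1 of the 12 retinas, of the IOP group, at 0.378 FPKM (adjusted p = 0.513). Factors downstream of the interferon receptors were called higher, among them Irf9 (5.53 to 42.7 FPKM, 2.65, adjusted p = 0.000417) and Stat2 (8.20 to 22.2 FPKM, 1.28, adjusted p = 0.00215). Of the 10 genes above 0, 4 were called higher, Ifnar2, a subunit of the type I interferon receptor, being another, while Jak1, a receptor kinase, was called lower (43.5 to 36.7 FPKM, -0.24, adjusted p = 0.0243) but not with the mouse as a block.

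The genes most like the sensors over the 12 libraries were found by their correlation with the mean standardized level of the 8 members. Slfn2 was the closest (Pearson r = 0.991), followed by Psmb9, Lcn2, Trim30a, Irf7, Adgre1, Tap1, Bcl2a1d, Litaf and Fermt3 (r = 0.979 to 0.984). They include immunoproteasome and peptide transporter genes (Psmb9, Tap1) and the macrophage marker Adgre1. Of 12902 genes compared, 405 had r above 0.9. Among the members, Trex1 correlated with the other 7 at r = 0.27 to 0.62, and Aim2 at 0.27 to 0.75. Pairs of the other 6 members had r = 0.81 to 0.96, so the mean level stands less for Trex1 and Aim2. The 12 points come from 6 mice and fall into control and IOP‐treated retinas, so that r includes the difference between these.

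Markers of immune cells were also higher after IOP. The summed level of 10 microglial markers was 65.8 to 100.5 FPKM in ctrl and 259 to 466 FPKM in IOP retinas. With GCV it was 75.7 to 83.6 FPKM and 231 to 528 FPKM. Over all mice 8 of the 10 were called higher, the exceptions being the resident markers P2ry12 and Tmem119. With the mouse as a block 7 were called, and 7 to 8 when a library was left out. For 10 markers of infiltrating leukocytes the sums were 9.62 to 48.8 FPKM in ctrl, 331 to 754 FPKM in IOP, 12.0 to 37.2 FPKM in ctrl‐GCV and 181 to 2527 FPKM in IOP‐GCV retinas, with 7 of 10 called higher. Leaving out a library gave 6 to 8 calls in this leukocyte list. Of its markers Cd3e, a T cell gene, was at 0 in 8 of the 12 libraries and was not called (adjusted p = 0.816). Ly6c2, a monocyte gene, was at 0 in 5 control libraries and at 4.94 to 39.6 FPKM after IOP (log2 difference 3.55, adjusted p = 0.000836). Among IOP‐GCV retinas, mouse 5 had the highest sums of both lists (528 and 2527 FPKM) and the highest values of 7 of the 8 sensors, all but Trex1. Mouse 2 had the lowest sums (231 and 181 FPKM) and the lowest values of 6 of the 8 sensors, all but Ddx58 and Trex1. Without GCV the order differed between sensors. Mouse 4 had the lowest sums (259 and 331 FPKM) and the highest Ddx58, Ifih1, Eif2ak2 and Zbp1 of the 3 IOP retinas, and mouse 6 had the highest sums (466 and 754 FPKM) and the lowest Ddx58, Ifih1, Dhx58 and Zbp1. Aim2 had the order of the sums, from 1.25 FPKM in mouse 4 to 1.79 FPKM in mouse 6. Tmem173 was lowest in mouse 4 (2.35 FPKM) and highest in mouse 3 (2.75 FPKM). Trex1 lay between 18.8 and 18.9 FPKM in all 3. The part of these cells in the sensor levels was not tested.

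Every marker of rods, bipolar cells, Mueller glia and retinal ganglion cells was above 0 in all libraries. Rod markers summed to 21917 to 47307 FPKM, and 0 of 4 were called. Neither were the 3 bipolar cell markers, the 4 of endothelium, the 4 of the retinal pigment epithelium nor the 3 of blood. Leaving out the control retina of mouse 5 gave 2 calls of lower pigment epithelium markers, leaving out the IOP‐treated retina of mouse 4 gave 1 of a lower bipolar marker, and the filter on low values gave 1 of a lower rod marker. Of 4 Mueller glia markers 1 was called higher and 2 lower (0 and 1 with the mouse as a block). All 5 markers of retinal ganglion cells were called lower, 1 of them with the block. None was called when any control retina, or the IOP‐treated retina of mouse 5 or mouse 6, was left out, and 1 was called without that of mouse 2 or mouse 3. Lens markers varied from 2.89 to 5298 FPKM between control retinas and from 54.6 to 4010 FPKM between IOP‐treated retinas, with 3 of 5 called higher. That count was 0 when any control retina but that of mouse 1, or the IOP‐treated retina of mouse 1, 2 or 6, was left out, 1 without the IOP‐treated retina of mouse 5, 2 without that of mouse 4, and 4 without that of mouse 3 or the control retina of mouse 1. The part of lens tissue in the results was not tested.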

How the data were processed

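The authors prepared stranded mRNA libraries and sequenced them in pairs on a HiSeq4000, and counted reads over RefSeq exons with HOMER. The submitters' processing notes name TopHat2, Bowtie2, Cufflinks, Cuffdiff and mm10, with versions and roles not given in the sources used here. The deposited table holds FPKM values of 12 libraries; the unit was inferred from the steps between low values. Fragments per library were estimated, by a method chosen after the values were seen, from 2243 genes with 1 transcript of at least 1500 bases, less 170 bases: 81.0% to 89.6% of low values fell within 0.15 of a whole number, against 30.0% for an even spread. Counts are not in the table, so no counting intervals were computed. No 2 libraries were identical.

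The test was limma (3.58.1, under R 4.3.3) on log2(FPKM + 1), with 4 group means, a variance trend and all 12 libraries, and was tested on simulated data. The mouse number marks the 2 eyes of an animal, so it pairs samples; deviations of the 2 eyes from their group means correlated at -0.12, 0.13, 0.21, 0.39, 0.17 and 0.10 in mice 1 to 6 over 12910 genes. That retinas of different mice are separate samples follows from the mouse numbers. As alternatives, each library was left out, the mouse was made a block, the fit was restricted to the groups compared, the trend was dropped, libraries were scaled by median ratios, genes were kept only at 1 FPKM or more in at least 3 libraries, and the pseudocount was set to 0.1. The members and lists were chosen with earlier results of these data known. Genes named are the 8 members, the 3 genes with the smallest adjusted p in each list among those reaching a group mean of 1 FPKM, 14 fixed partners, and the 10 genes most like the members; Fadd, Il18, Ifnar2, Jak1, Cadm3, Dhx58os, Gm26637, Atrip and the markers were named after their values were seen. Some genes of the lists are not reported here. Tables were handled in pandas 2.3.3 and numpy 2.4.6 (Python 3.11.15), and plots drawn in matplotlib 3.10.9.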

Additional observations from a re-analysis of the deposited data

How the results depend on the processing

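Over all 6 mice 7 members were called with a pseudocount of 0.1, the filter, median-ratio scaling or no trend, 6 with the mouse as a block, and 5 to 7 when a library was left out. Without GCV the number was 3 with a pseudocount of 0.1 or only the groups compared, 1 with the block, and 1 to 3 when a library was left out. With GCV it was 6 with a pseudocount of 0.1 or the filter, 1 with only the groups compared, 2 with the block, and 1 to 6 when a library was left out. For the difference of the IOP effect, and for GCV against no GCV in IOP-treated or control retinas, it was 0 under each alternative run; the block was run for the difference of the IOP effect and not for the other 2, in which the groups are different mice. Beyond the calls named in the report, the block changed no call of a member. Calls over all genes went from 306 to 75 with the block without GCV, from 334 to 144 with GCV (92 with only the groups compared, 535 with a pseudocount of 0.1), and from 2258 to 1351 over all mice; a pseudocount of 0.1 gave 464 without GCV. Leaving out a library moved these counts to 23 to 2490, 77 to 716 and 830 to 4515. Tmem173 in IOP-treated retinas turned to -0.032 with a pseudocount of 0.1. When a library was left out, log2 differences changed sign for Trex1 without GCV (-0.039 to 0.13) and Aim2 with GCV (-0.021 to 0.46); for the difference of the IOP effect in Ddx58 (-0.044 to 0.46), Dhx58 (-0.070 to 0.75) and Eif2ak2 (-0.28 to 0.54); for GCV in IOP-treated retinas in Aim2 (-0.23 to 0.25), Ddx58 (-0.12 to 0.38), Dhx58 (-0.0018 to 0.82), Eif2ak2 (-0.36 to 0.46), Ifih1 (-0.011 to 0.76), Tmem173 (-0.23 to 0.34) and Zbp1 (-0.25 to 0.26); and for GCV in control retinas in Ddx58 (-0.20 to 0.048), Dhx58 (-0.068 to 0.25), Eif2ak2 (-0.16 to 0.0032), Ifih1 (-0.17 to 0.082) and Trex1 (-0.070 to 0.096). None of these was a called difference, and the cause was not tested. The filter left out no member. Genes below about 1 FPKM rest on few fragments, which limits Zbp1, Dhx58, Tmem173 and Aim2 in control retinas. For Aim2 the control values rest on 10.1 to 27.9 estimated fragments.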

Other observations

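Sensors of nucleic acids in endosomes, which see material taken up from outside the cell, were also higher after IOP. Of 7 genes, 6 were called higher over all 6 mice, with a list median of 0.98 on the log2 scale against 0.01 over all genes. Unc93b1, the chaperone that carries these receptors to endosomes, went from 1.92 to 18.4 FPKM (log2 difference 2.53, SE 0.33, adjusted p = 0.00177 by limma). Myd88, the adaptor of most Toll‐like receptors, went from 4.25 to 11.1 FPKM (1.13, adjusted p = 0.0113), and Tlr7, a receptor for single‐stranded RNA, from 0.140 to 1.82 FPKM (1.19, adjusted p = 0.0198). Tlr3, the receptor for double‐stranded RNA, averaged 1.54 FPKM in control retinas and 2.28 FPKM after IOP and was not called (adjusted p = 0.180); it was named after its value was seen. With the mouse as a block 4 of the 7 genes were called, and 2 to 6 when a library was left out, with 2 called without the control retina of mouse 4.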
